A study of Mus musculus with 11 samples.

Results

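The 9 genes described here are the inhibitor-of-differentiation genes Id1, Id2, Id3 and Id4, the bone morphogenetic protein (BMP) ligand genes Bmp4 and Bmp7, and the BMP feedback genes Smad6, Smad7 and Bambi. They were taken by symbol from the deposited count table, which holds 38197 genes, and all 9 were found. They had been chosen by their measured levels in these same libraries, as genes said to be low on day 1 and back on day 2. Their levels at days 0, 1 and 2 are therefore given as a description with no test. For these 9, tests are given only where day 3 or day 3.5 libraries enter, while genes outside the 9 are tested between all neighbouring days.

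The RNA-seq libraries were made from polyadenylated RNA of wild-type E14, an embryonic stem cell line from mouse strain 129 that was differentiated in monolayer toward the ventral hindbrain. Whole cultures gave 2 libraries on each of days 0, 1, 2 and 3. Those of day 0 are titled ESCs, for embryonic stem cells. The labels of the whole-culture libraries carry the word Nondiff on every day, without an explanation. A further 3 libraries came from cells gated on Prominin-1, which marks neural progenitors on their surface. The treatment text is the same for every library and gives retinoic acid (RA) and SAG, a Smoothened agonist that switches on hedgehog signaling, from day 0 to day 3, without concentrations. One label of the sorted cells says day 3.5 and another says 3 days. They are called day 3.5 here. Nothing in the labels says whether replicates were separate cultures, so the p-values measure the spread between these libraries, which may be technical.

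BMP ligands bind a complex of type I and type II receptor kinases, which phosphorylate SMAD1, SMAD5 and SMAD9. These join SMAD4, enter the nucleus and switch on target genes, of which the Id genes are among the best known. Id proteins lack a DNA-binding region and pair with E proteins, so that E proteins cannot form active dimers with proneural factors. In mouse stem cell culture BMP and Id proteins are known for holding back neural differentiation, and in the neural tube BMPs come from the roof plate and pattern the dorsal side, opposite to hedgehog. Smad6, Smad7 and Bambi are themselves targets of the pathway and dampen it.

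Promoter sequences of 3 Id genes are shown because the Id genes carry the pattern described below and are direct SMAD targets. RefSeq windows on GRCm38.p6, running from 250 bases before to 50 bases after an annotated start, were found for 5 of the 9 genes, Id2, Id3, Id4, Bmp4 and Smad6. Smad7 and Bambi were left out of this search. The Id2 window lies at chr12:25096043-25096342 on the minus strand, the Id3 window at chr4:136143572-136143871 on the plus strand and the Id4 window at chr13:48260866-48261165 on the plus strand. Each is written 5′ to 3′, and capitals mark GGCGCC, a GC-rich palindrome known to be bound by BMP SMADs.
Id2 promoter: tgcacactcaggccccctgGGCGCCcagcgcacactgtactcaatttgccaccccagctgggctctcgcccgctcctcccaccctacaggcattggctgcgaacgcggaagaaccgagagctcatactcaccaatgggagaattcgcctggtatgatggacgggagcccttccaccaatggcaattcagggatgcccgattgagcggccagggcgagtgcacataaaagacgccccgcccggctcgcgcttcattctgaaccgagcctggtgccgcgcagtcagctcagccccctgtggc
Id3 promoter: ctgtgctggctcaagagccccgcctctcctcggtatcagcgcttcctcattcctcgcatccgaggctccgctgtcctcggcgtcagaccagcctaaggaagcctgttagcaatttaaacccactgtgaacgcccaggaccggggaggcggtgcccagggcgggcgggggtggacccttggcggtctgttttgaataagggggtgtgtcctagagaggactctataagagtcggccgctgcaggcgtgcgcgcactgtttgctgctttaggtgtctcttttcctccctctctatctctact
Id4 promoter: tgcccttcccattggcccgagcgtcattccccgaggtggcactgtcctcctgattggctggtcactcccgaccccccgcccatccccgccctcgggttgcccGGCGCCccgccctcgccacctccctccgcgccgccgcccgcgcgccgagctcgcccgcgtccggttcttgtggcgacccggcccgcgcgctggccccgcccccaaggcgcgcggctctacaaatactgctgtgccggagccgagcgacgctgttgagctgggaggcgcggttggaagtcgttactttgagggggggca
GGCGCC was found in the Id2 window at position -231 and in the Id4 window at position -148 relative to the start, and 11.9% of 32851 RefSeq windows of the same length held it. CAGAC, the short SMAD box, was found in the Id3 window at positions -167 and -68, against 49.6% of all windows. TGACG, the core of the cyclic AMP response element, was found in Id3 at -170, where it shares bases with CAGAC, and in Id4 at -229, against 20.8% of all windows. The longer SMAD palindrome GTCTAGAC was found in the Smad6 window at -4, against 0.213% of all windows, and TATAAA was found in none of the 5, against 13.6%. Both strands were searched, and a match is a run of letters, not a shown binding site. GC content was 63.3% in the Id2 window, 60.0% in Id3 and 73.3% in Id4, beside a median of 52.7% over all windows.

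In GENCODE M21 on GRCm38, Id1 lies at chr2:152736251-152737410 and Id2 at chr12:25093799-25097140. Id3 lies at chr4:136143497-136145755 and Id4 at chr13:48261228-48266026, where 2 RNAs annotated on the opposite strand overlap Id4 and were not analysed here. Bmp4 lies at chr14:46383520-46390669, and its overlapping antisense gene Gm15222 had at most 4 counts in any library. Bmp7 lies at chr2:172868012-172940321 and Smad6 at chr9:63953076-64022059. Bambi has a processed pseudogene, Bambi-ps1, whose mean level ran between 0.652 and 1.94 CPM over the days. Whether reads were shared between Bambi and its copy was not tested.

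Library totals ran from 26136333 to 30384601 counts in the 8 unsorted libraries and from 13173675 to 17113432 in the 3 sorted ones, which also carry another code prefix in their labels. Levels are TMM-scaled CPM (read counts relative to library size), and FPKM, which is also relative to transcript length, is used where genes are set against each other. Summed CPM of 7 naive stem cell markers, such as Nanog and Esrrb, was 623 to 1060 on day 0, 139 to 149 on day 1, 35.8 to 43.2 on day 2, 25.6 to 36.1 on day 3 and 9.62 to 12.9 on day 3.5. For 8 neural progenitor markers, such as Sox1 and Nes, the sum was 455 to 461 on day 0, 365 to 403 on day 1, 981 to 1001 on day 2, 1469 to 1488 on day 3 and 1906 to 2142 in sorted cells. The lower sum on day 1 was not shared by all 8. Of these markers, 4 rose and 2 fell on day 1 against day 0 (edgeR adjusted p at most 0.05), beside 12.0% and 8.91% of all genes. Sox1 averaged 18.1 CPM on day 0 and 41.2 CPM on day 1, and Nes averaged 188 and 88.5 CPM. Neuron markers summed to 972 to 1547 CPM in those sorted cells, against 983 to 1198 on day 3. Within day 1, replicate 2 was above replicate 1 in 8 of the 9 genes, with a log2 difference of 1.71 for Id3, 1.45 for Id4, 1.14 for Bmp4 and 1.04 for Id1. The same count was 1 on day 0, 8 on day 2 and 3 on day 3. The share over all genes was not computed, so nothing is read from these counts.

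The label of a fall on day 1 and a return on day 2 held for 7 of the 9 genes, where any rise above day 1 counts as a return. Of these, Bmp4 and Smad7 stayed below their day 0 level on day 2. Both day 1 libraries were below both day 0 libraries for the 4 Id genes, Bmp4, Smad7 and Bambi, whereas Bmp7 and Smad6 were higher in both. Of all 16810 genes tested, 26.8% were lower and 28.7% higher in this sense. Both day 2 libraries were above both day 1 libraries for 9 of 9, against 34.2% of all genes, and 8.69% of all genes showed the fall and the return together. Because these 2 comparisons share the day 1 libraries and chose the genes, nothing is read from these counts. Marker lists of other cell types moved over the same days, not all in the same direction. The 14 extraembryonic endoderm markers summed to 746 to 1032 CPM on day 0, 675 to 788 on day 1 and 2308 to 2547 on day 2, mostly Lama1 and Col4a1, and 10 surface ectoderm and trophoblast markers to 163 to 176, 112 to 165 and 238 to 320 CPM on those days. The surface ectoderm and trophoblast sum was mostly Krt8 and Krt18. In that list 3 markers rose and 1 fell on day 2 against day 1 in edgeR, beside 9.65% and 9.99% of all genes. The median log2 fold change of that list was 0.045. Like the neural progenitor sum given above, both sums were higher in both day 2 libraries than in both day 1 libraries, and their part in the levels of the 9 genes was not tested. In bulk RNA, fewer cells expressing a gene and less RNA per cell cannot be told apart.

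**Figure D1:**
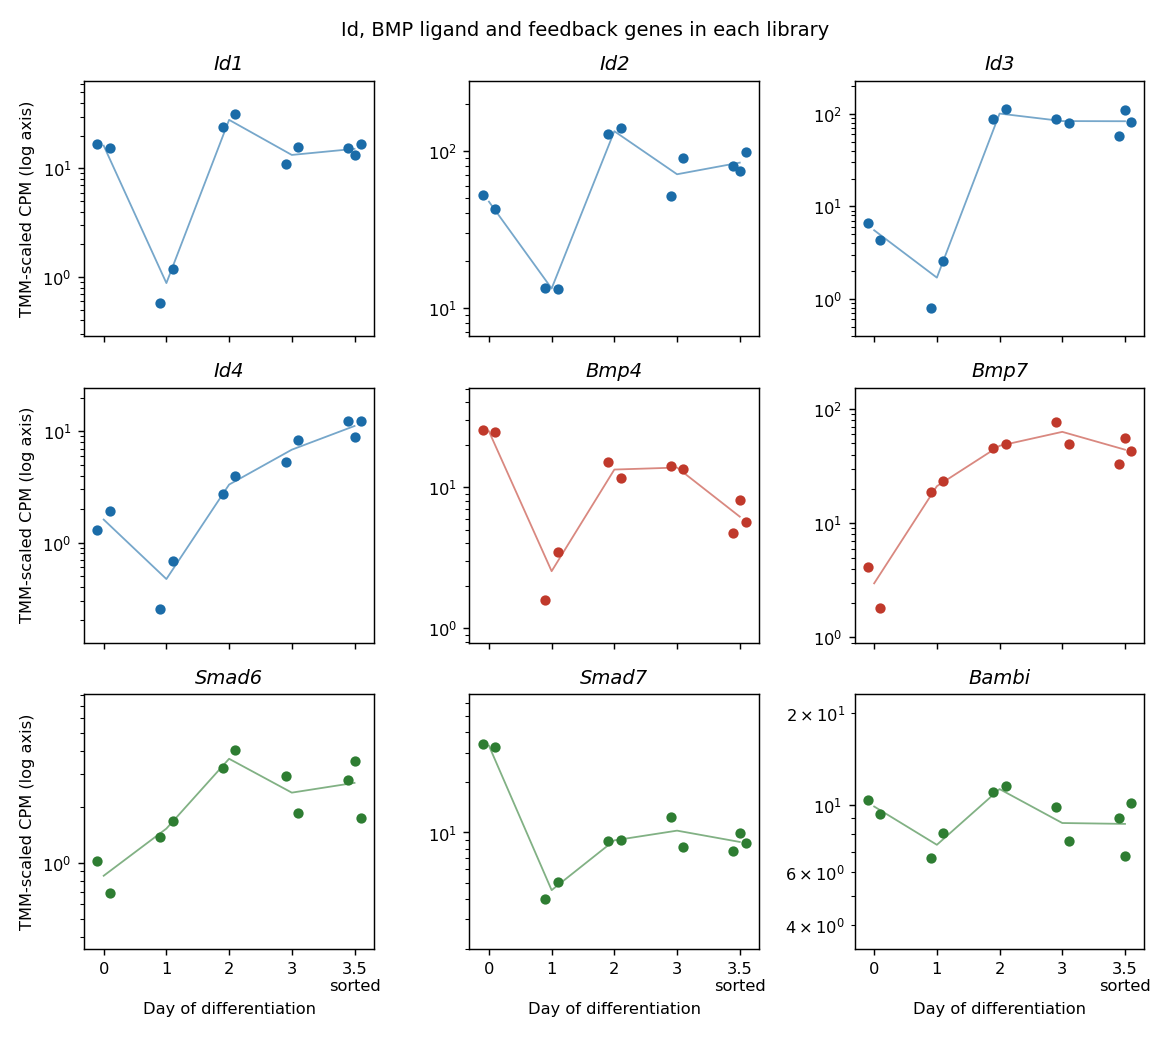
TMM-scaled CPM (log axis) of each of the 9 genes against day of differentiation, with 1 point per library and a line through the day means. Each gene has its own axis range. Id1, Id2, Id3, Id4, Bmp4 and Smad7 dip on day 1, Bambi dips slightly, and Bmp7 and Smad6 have no dip.

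Id1, the Id gene most often used as a readout of BMP signaling, had the deepest day 1 dip of the 9. Its level was 16.9 and 15.5 CPM on day 0, 0.577 and 1.19 on day 1, 24.1 and 31.8 on day 2, 10.9 and 15.7 on day 3, and 15.4, 16.7 and 13.4 on day 3.5. The day 1 values rest on 16 and 38 counts. The mean on day 1 was 18.1-fold below day 0, and on day 2 it was 31.3-fold above day 1 and 1.73-fold above day 0, with no overlap between libraries. Days 0, 3 and 3.5 were neighbours whose ranges overlapped.

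Id2, a relative with roles in many tissues, dipped less and had the highest FPKM of the Id genes on day 0. It stood at 52.5 and 42.5 CPM on day 0, 13.3 and 13.2 on day 1, 127.6 and 139.6 on day 2, 51.9 and 90.1 on day 3, and 79.8, 98.9 and 74.0 on day 3.5. The day 1 mean was 3.58-fold below day 0 and the day 2 mean 2.82-fold above day 0. Day 2 was the highest day, and its libraries did not overlap with those of day 3.5 or day 3, while the day 0 and day 3 ranges overlapped.

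Id3, a close relative of Id1, was the member that differed most between day 0 and day 2 within the Id family. It had 6.66 and 4.37 CPM on day 0, 0.793 and 2.59 on day 1, 88.3 and 114 on day 2, 87.4 and 80.2 on day 3, and 57.1, 82.7 and 111 on day 3.5. The dip on day 1 was 3.22-fold, and the day 2 mean was 58.7-fold above day 1 and 18.3-fold above day 0. All libraries from day 2 onward were above all earlier ones, so for Id3 the word return covers a level far above the starting one.

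Id4, known from neural progenitors and astrocytes, had the lowest FPKM of the Id genes on day 0, and its mean CPM was higher on each sampled day after day 1. It had 1.29 and 1.93 CPM on day 0, 0.252 and 0.688 on day 1, 2.71 and 3.93 on day 2, 5.25 and 8.42 on day 3, and 12.3, 12.3 and 8.90 on day 3.5. The day 1 values rest on 7 and 22 counts. No neighbouring days overlapped in the order day 1, day 0, day 2, day 3 and day 3.5.

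Set per length, the make-up of the Id family changed along with its total. The 4 Id genes summed to 55.5 and 41.8 FPKM on day 0, 10.6 and 13.2 on day 1, 176 and 214 on day 2, 122 and 143 on day 3, and 114, 150.0 and 153 on day 3.5. Id2 made up 61.2% and 59.5% of that sum on day 0, 88.4% and 73.6% on day 1, 50.4% and 46.4% on day 2, 31.6% and 44.4% on day 3, and 47.2%, 45.5% and 35.0% on day 3.5. The share of Id3 was 9.15% and 7.17% on day 0, 5.04% and 14.8% on day 1, 35.0% and 37.5% on day 2, 56.6% and 41.5% on day 3, and 34.9%, 39.7% and 53.1% on day 3.5. In every library from day 2 on Id3 was above Id1, which held between 9.10% and 15.3% there. Id4 never exceeded 4.82% of the family.

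Bmp4 and Bmp7, the ligand genes among the 9, ran in opposite directions over the first day. Bmp4, which encodes a ligand of the dorsal neural tube and its overlying ectoderm, had 25.4 and 24.5 CPM on day 0, 1.59 and 3.5 on day 1, 15.1 and 11.6 on day 2, 14.2 and 13.4 on day 3, and 4.72, 5.71 and 8.16 on day 3.5. Its day 1 mean was 9.74-fold below day 0, and no later library reached the day 0 level. Bmp7, a ligand that can pair with BMP4 and BMP2, had 4.15 and 1.8 CPM on day 0, 18.6 and 23.6 on day 1, 45.5 and 49.9 on day 2, 76.9 and 49.4 on day 3, and 33.2, 43.0 and 56.0 on day 3.5. Its day 1 mean was 7.01-fold above day 0, and its day 0 libraries were its lowest.

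Of the summed FPKM of these ligand genes, Bmp4 made up 93.3% and 97.0% on day 0, 15.8% and 28.6% on day 1, 45.8% and 36.0% on day 2, 30.4% and 39.0% on day 3, and 25.0%, 23.2% and 27.4% on day 3.5. Bmp4 was therefore the main ligand transcript of the pair in both day 0 libraries and the minor one in every later library.

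**Figure D2:**
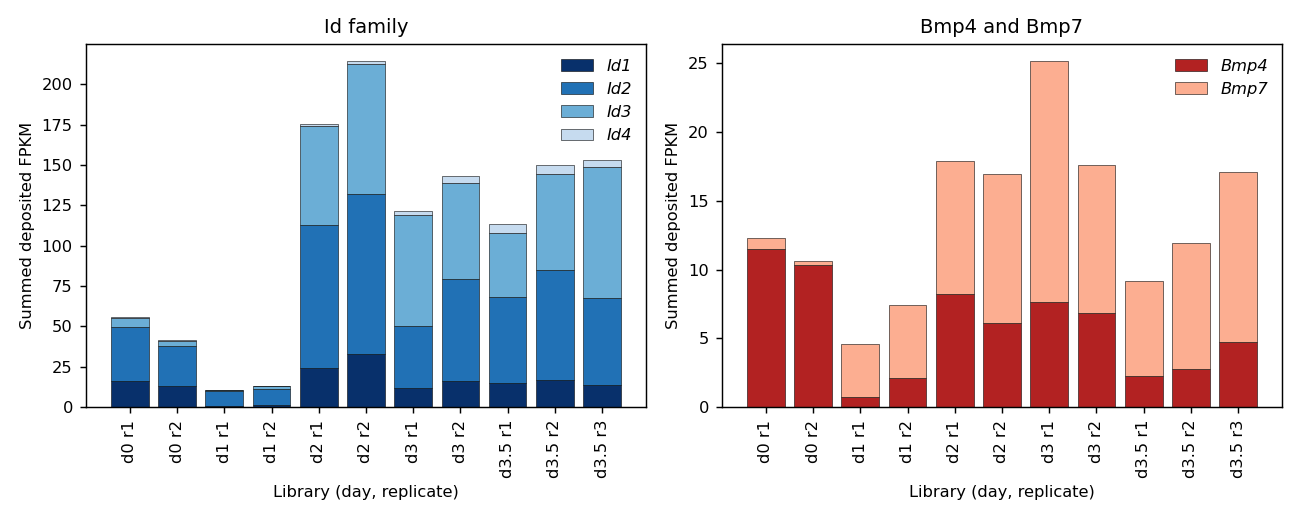
Deposited FPKM stacked by gene in each library (d, day; r, replicate), for the 4 Id genes on the left and for Bmp4 and Bmp7 on the right. The Id stack is lowest on day 1 (10.6 and 13.2 FPKM) and tallest on day 2, and Bmp4 is the larger part of the right-hand stacks only on day 0.

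Smad7, which encodes an inhibitory SMAD that acts on both BMP and transforming growth factor beta receptors, was low on day 1 and stayed below its day 0 level. It had 33.8 and 32.7 CPM on day 0, 3.97 and 5.03 on day 1, 8.88 and 9.05 on day 2, 12.4 and 8.16 on day 3, and 7.77, 8.62 and 9.93 on day 3.5. The day 1 mean was 7.38-fold below day 0 and the day 2 mean was 1.99-fold above day 1 but 3.70-fold below day 0. Its 2 day 1 libraries differed more on FPKM, at 0.811 and 2.47, than on CPM.

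Smad6, which encodes the inhibitory SMAD that is more selective for BMP receptors, was scarce throughout and had no dip. It had 1.02 and 0.685 CPM on day 0, 1.37 and 1.69 on day 1, 3.23 and 4.03 on day 2, 2.92 and 1.85 on day 3, and 2.81, 1.75 and 3.53 on day 3.5. Both day 1 libraries were above both day 0 libraries, which rest on 30 and 16 counts. The ranges of days 2, 3 and 3.5 overlapped with a neighbour in rank.

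Bambi, which encodes a pseudoreceptor lacking a kinase, hardly moved. It had 10.4 and 9.33 CPM on day 0, 6.67 and 8.06 on day 1, 11 and 11.5 on day 2, 9.78 and 7.61 on day 3, and 9.02, 10.1 and 6.76 on day 3.5. Its day 1 mean was 1.34-fold below day 0, and its day 0 and day 1 libraries overlapped when CPM was scaled by library total alone and on FPKM. Within this family of 3, Smad7 made up 89.1% and 89.6% of the summed FPKM on day 0 and 32.1% to 70.0% in every later library.

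Compared with day 0, the level on day 2 was higher in every library for 7 of the 9, the 4 Id genes, Bmp7, Smad6 and Bambi, beside 38.5% of all genes. It was lower in every library for Bmp4 and Smad7, beside 37.1% of all genes. Among the genes that fell on day 1, the 4 Id genes and Bambi thus stood above day 0 on day 2, Bambi by 1.14-fold. Bmp4 and Smad7 stood below it. Bmp7 and Smad6 had no fall on day 1 and so nothing to return from. The levels on these days chose the genes, so these counts are a description.

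Day 3 against day 0 asks what remained after 3 days of differentiation. The day 3 libraries did not enter the choice of the genes, but the day 0 libraries did. In edgeR's quasi-likelihood test with Benjamini-Hochberg adjustment over 16810 genes, 4 of the 9 rose and 1 fell on day 3, beside 27.6% of all genes higher and 26.3% lower. With 53.9% of all genes called in either direction, 5 of 9 is a share close to the background. The median log2 fold change of the 9 was 0.58, beside 0.02 over all genes tested. Bmp7 averaged 63.2 ± 19.4 CPM on day 3 and 2.97 ± 1.66 CPM on day 0 (SD, n = 2 each), a log2 fold change of 4.40 ± 0.40 (SE, edgeR adjusted p = 3.27e-05). Id3 averaged 83.8 ± 5.09 CPM on day 3 and 5.51 ± 1.62 CPM on day 0, a log2 fold change of 3.92 ± 0.42 (edgeR adjusted p = 8.64e-05). For Id4, 6.83 ± 2.24 CPM on day 3 stood against 1.61 ± 0.449 CPM on day 0, with a log2 fold change of 2.1 ± 0.47 (edgeR adjusted p = 0.00478). Each of these 3 genes was higher in both day 3 libraries, as were 39.5% of all genes.

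Smad6 averaged 2.39 ± 0.758 CPM on day 3 and 0.852 ± 0.237 CPM on day 0, a log2 fold change of 1.48 ± 0.41 (edgeR adjusted p = 0.0135). That call was lost when day 0 replicate 2 or day 3 replicate 1 was left out (edgeR adjusted p = 0.0724 and 0.0919). Smad7 fell to 10.3 ± 2.97 CPM on day 3, against 33.3 ± 0.781 CPM on day 0, a log2 fold change of -1.69 ± 0.26 (edgeR adjusted p = 0.000644). The other 4 did not pass. Their log2 fold changes were -0.28 ± 0.31 for Id1, 0.59 ± 0.25 for Id2, -0.85 ± 0.33 for Bmp4 and -0.17 ± 0.25 for Bambi, with edgeR adjusted p = 0.477, 0.0703, 0.0523 and 0.572. Bmp4 was lower in both day 3 libraries, as were 38.0% of all genes, and was called in DESeq2 (adjusted p = 0.0156), and Id2 was called when day 3 replicate 1 was left out (edgeR adjusted p = 0.00979).

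Between day 2 and day 3 none of the 9 passed in edgeR, where 4.07% of all genes did. At an unadjusted p under 0.05 there were 3, Id1, Id2 and Id4, beside 20.8% of all genes. DESeq2 called 2 of the 9 lower, where it called 524 of 16810 genes lower and 953 higher. The day 2 libraries had entered the choice of the genes. Id1 averaged 13.3 ± 3.39 CPM on day 3 and 28.0 ± 5.43 CPM on day 2, a log2 fold change of -1.07 ± 0.31 (adjusted p = 0.0952 in edgeR and 0.0109 in DESeq2). Id2 averaged 71.0 ± 27.0 CPM on day 3 and 134 ± 8.50 CPM on day 2, a log2 fold change of -0.91 ± 0.25 (adjusted p = 0.0740 in edgeR and 0.0134 in DESeq2). Both were lower in both day 3 libraries, as were 31.0% of all genes. Leaving out day 1 replicate 1 or replicate 2 brought Id1 to an edgeR adjusted p of 0.0431 and 0.0412, and leaving out day 3 replicate 2 brought Id2 to 0.0288. Id4 averaged 6.83 ± 2.24 CPM on day 3 and 3.32 ± 0.857 CPM on day 2, a log2 fold change of 1.04 ± 0.45 (edgeR adjusted p = 0.225), and was higher in both libraries, as were 30.9% of all genes. For the other 6 genes the log2 fold changes lay between -0.60 (Smad6) and 0.41 (Bmp7), with edgeR adjusted p from 0.417 to 0.956.

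Day 3.5 against day 3 is the comparison that the choice of the genes touched least, since neither group was used for it. The sort, the time, the label code prefix and the depth differ together between these groups and cannot be told apart. None of the 9 passed in edgeR, where 3.37% of 17006 genes did, with 0.435% higher and 2.93% lower. At an unadjusted p under 0.05 there was 1, Bmp4, beside 15.4% of all genes. DESeq2 called Bmp4 lower, where it called 756 of 17006 genes lower and 216 higher. Bmp4 averaged 6.20 ± 1.77 CPM in sorted cells (n = 3) and 13.8 ± 0.535 CPM on day 3 (n = 2), a log2 fold change of -1.16 ± 0.31 (adjusted p = 0.0701 in edgeR and 0.00816 in DESeq2). All 3 sorted libraries were below both day 3 libraries, which 19.1% of all genes also showed. Without day 1 replicate 1 or replicate 2 in the fit, its edgeR adjusted p was 0.0188 and 0.0210.

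Id4 was the gene of the 9 with all sorted libraries above both day 3 libraries, which 14.3% of all genes also showed. It averaged 11.2 ± 1.95 CPM in sorted cells and 6.83 ± 2.24 CPM on day 3, a log2 fold change of 0.71 ± 0.35 (edgeR adjusted p = 0.371). The other Id genes overlapped between the groups. Id1 averaged 15.1 ± 1.65 CPM in sorted cells and 13.3 ± 3.39 CPM on day 3, with a log2 fold change of 0.19 ± 0.26 (edgeR adjusted p = 0.807). For Id2 the levels were 84.2 ± 13 CPM in sorted cells and 71.0 ± 27.0 CPM on day 3 (0.25 ± 0.22 on the log2 scale), and for Id3 they were 83.5 ± 26.7 CPM in sorted cells and 83.8 ± 5.09 CPM on day 3 (-0.01 ± 0.34). Bmp7, Smad6, Smad7 and Bambi also overlapped, with log2 fold changes of -0.52 ± 0.30, 0.17 ± 0.36, -0.23 ± 0.22 and -0.01 ± 0.23.

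Markers of extraembryonic endoderm, a cell type that stem cell cultures can hold, moved in this comparison. Their 14 genes summed to 610 to 862 CPM in sorted cells and 2350 to 4199 CPM on day 3. Of the 13 tested, 10 fell, beside 2.93% of all genes. Gata4 averaged 0.983 CPM in sorted cells and 32.8 CPM on day 3, Sox17 averaged 0.164 CPM in sorted cells and 7.04 CPM on day 3, and Cubn 2.22 CPM in sorted cells and 97.1 CPM on day 3. Hnf4a had at most 1 count in any sorted library and Apoa1 was at or under 3 counts in all 11 libraries, while the remaining sum was mostly Lama1 and Col4a1, at 213 and 378 CPM. Foxa2, which the floor plate also expresses, averaged 114 CPM in sorted cells and 144 CPM on day 3, and Dab2 averaged 33.3 CPM in sorted cells and 95.3 CPM on day 3. The part of these other cells in the levels of the 9 genes was not tested.

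**Figure D3:**
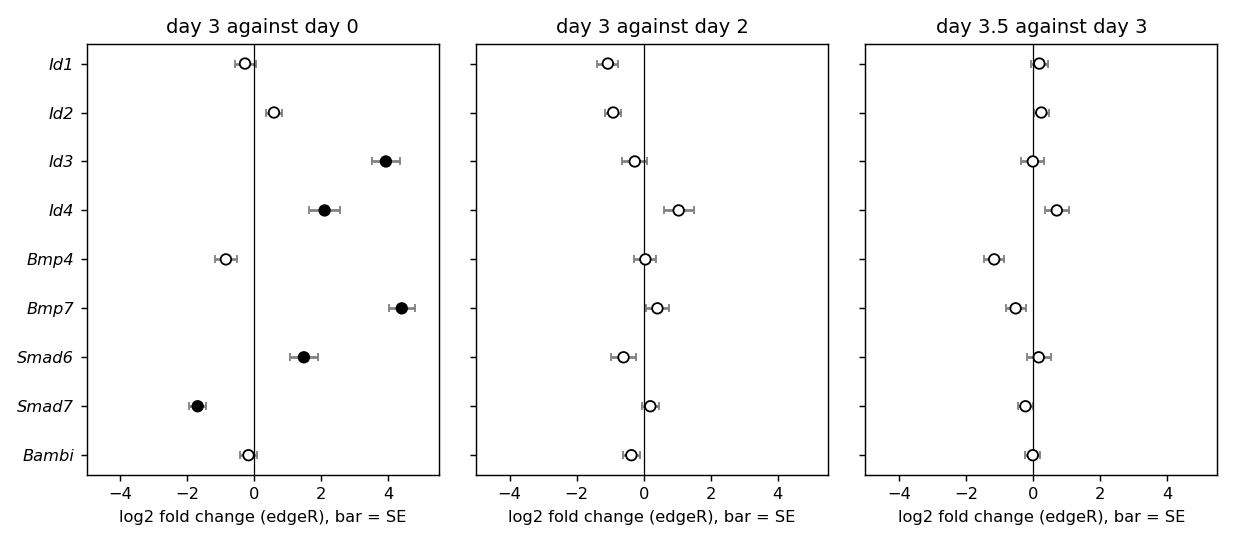
Log2 fold change from edgeR for each of the 9 genes in the 3 tested comparisons, with bars of 1 SE and filled points where the adjusted p is at most 0.05. There are 5 filled points in day 3 against day 0 and none in the other panels, where Id1 and Id2 (day 3 against day 2) and Bmp4 (day 3.5 against day 3) lie farthest below 0.

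The E proteins are the dimer partners that Id proteins capture. Tcf3, Tcf4 and Tcf12 together had 37.7 and 31.5 FPKM on day 0, 54.9 and 69.2 on day 1, 141 and 145 on day 2, 159 and 147 on day 3, and 153, 158 and 185 on day 3.5. The summed Id level divided by the summed E protein level was 1.47 and 1.33 on day 0, 0.193 and 0.191 on day 1, 1.25 and 1.48 on day 2, 0.767 and 0.974 on day 3, and 0.743, 0.948 and 0.828 on day 3.5. Since the Id genes were chosen for their levels at days 0 to 2, the order of this ratio over those days is a description and nothing is read from it. Tcf12 rose on day 1, to 189 ± 27.9 CPM against 103 ± 14.4 CPM on day 0 (log2 fold change 0.87 ± 0.17, edgeR adjusted p = 0.00811). Tcf4 rose on day 2, to 172 ± 11.4 CPM against 92.3 ± 2.49 CPM on day 1 (0.90 ± 0.15, edgeR adjusted p = 0.0036). Tcf3, whose day 1 libraries stood apart at 27.4 and 68.7 CPM, also passed on day 2 (1.79 ± 0.46, edgeR adjusted p = 0.026), but not in 5 of the 8 fits that left out 1 library. Tcf12 passed on day 2 as well (0.72 ± 0.17, edgeR adjusted p = 0.0178), though not without day 1 replicate 2, day 2 replicate 1 or day 2 replicate 2, where it reached 0.132.

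**Figure D4:**
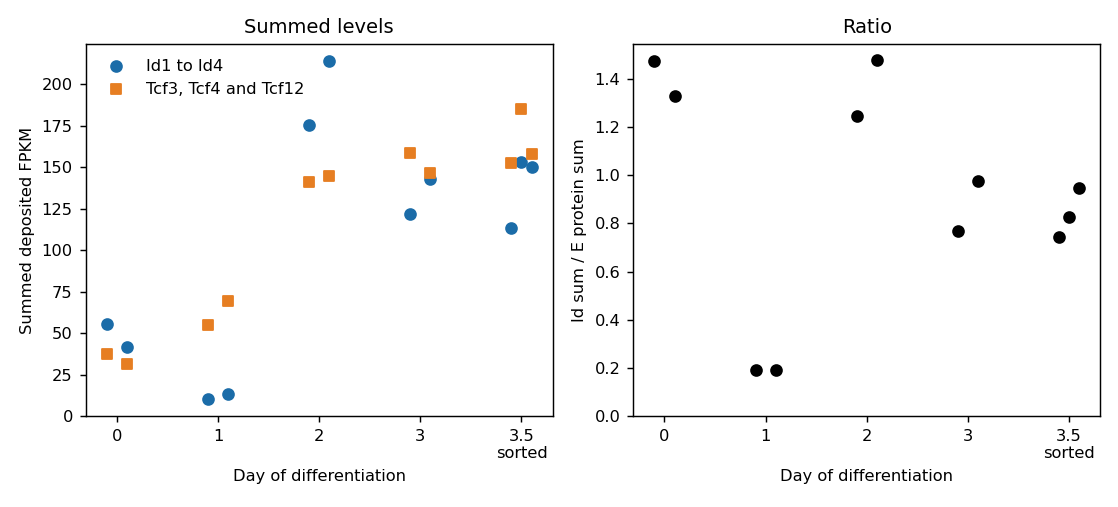
Left, summed deposited FPKM of Id1 to Id4 (circles) and of Tcf3, Tcf4 and Tcf12 (squares) in each library by day. Right, the ratio of these sums, which is about 0.19 in both day 1 libraries and between 0.743 and 1.48 in all others.

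A further 79 genes of the pathway that are no members were taken from 7 lists, and 70 passed the filter on low counts. On day 1 against day 0, 16 of the 70 rose and 4 fell, with a median log2 fold change of 0.34, beside 12.0% higher and 8.91% lower of all genes and a median of 0.01. On day 2 against day 1, 20 rose and 3 fell, with a median of 0.39, beside 9.65% and 9.99% of all genes. On day 3 against day 2, 2 rose and 1 fell, beside 2.81% and 1.26%. In sorted cells against day 3, none rose and 5 fell in edgeR, beside 0.435% and 2.93% of all genes. At an unadjusted p under 0.05 there were 2 higher and 14 lower, beside 15.4% of all genes in either direction. DESeq2 called 2 higher, where it called 216 of 17006 genes higher. These comparisons share day libraries, and the lists were drawn up with earlier results known.

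Among 12 other BMP ligand genes, 7 were tested, and 2 rose on day 1 while 3 rose and 1 fell on day 2. The shares over all genes were 12.0% higher on day 1, and 9.65% higher and 9.99% lower on day 2. Bmp2, the closest relative of Bmp4, averaged 4.34 ± 0.699 CPM on day 1 and 1.27 ± 0.168 CPM on day 0 (log2 fold change 1.76 ± 0.29, edgeR adjusted p = 0.00395), so it rose on the day when Bmp4 was at its lowest. Bmp3, a member of the family known to oppose BMP signaling, had 0 counts in both day 0 libraries, against means of 0.624 CPM on day 1, 6.22 CPM on day 2, 17.0 CPM on day 3 and 16.0 CPM on day 3.5. Its rise on day 2 against day 1 was 3.32 ± 0.53 on the log2 scale (edgeR adjusted p = 0.00442). Bmp5 also passed on day 2 (3.5 ± 0.67), though not without day 2 replicate 1 (edgeR adjusted p = 0.0837). Bmp2 passed on day 2 as well (0.94 ± 0.27, edgeR adjusted p = 0.0376), but not in 6 of 8 fits that left out 1 library.

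All 12 receptor and co-receptor genes were tested, and 2 rose on day 1 and 2 on day 2. Of all genes, 12.0% rose on day 1 and 9.65% on day 2, which also stands beside the SMAD gene counts below. Nothing is read from so few calls. Rgma, which encodes a BMP co-receptor and ligand of neogenin, rose on day 1, to 16.3 ± 7.18 CPM against 2.63 ± 1.42 CPM on day 0 (log2 fold change 2.61 ± 0.39, edgeR adjusted p = 0.00262). It rose again on day 2, to 73.6 ± 0.301 CPM (2.17 ± 0.36, edgeR adjusted p = 0.0038). Neo1, the gene of neogenin, rose on day 1, to 221 ± 21.2 CPM against 121 ± 14.5 CPM on day 0 (0.87 ± 0.15, edgeR adjusted p = 0.00522). Bmpr1b, a type I receptor gene of neural tissue, passed on day 2 (1.44 ± 0.33, edgeR adjusted p = 0.0163), though not without day 2 replicate 1 or replicate 2, where the adjusted p reached 0.118. Rgmb passed on day 3 against day 2 (1.40 ± 0.25, edgeR adjusted p = 0.0196), though not without day 2 replicate 1, day 2 replicate 2 or day 3 replicate 1, where it reached 0.197. Of 8 SMAD transducer and cofactor genes, 1 rose on day 1, Smad1 (0.57 ± 0.17, edgeR adjusted p = 0.0398), a call lost in all 8 fits that left out 1 library. One rose on day 2, Zfp423 (1.20 ± 0.32, edgeR adjusted p = 0.0317), a call lost in 5 of 8 such fits.

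Of 15 secreted antagonist genes tested, 4 rose and 2 fell on day 1, and 5 rose on day 2. Over all genes, 12.0% rose and 8.91% fell on day 1, and 9.65% rose on day 2. Fst, which encodes follistatin, a binder of activins and some BMPs, was also low on day 1. It fell on day 1 to 4.18 ± 0.406 CPM, against 26.8 ± 6.17 CPM on day 0 (log2 fold change -2.68 ± 0.27, edgeR adjusted p = 0.000465). It rose on day 2 to 42.9 ± 11.5 CPM (3.36 ± 0.27, edgeR adjusted p = 0.000156). In sorted cells it fell to 6.86 ± 1.85 CPM, against 37.7 ± 2.29 CPM on day 3 (-2.46 ± 0.26, edgeR adjusted p = 0.000402). Nog, which encodes noggin, a trap for BMP ligands made by the notochord and floor plate, rose on day 2 to 8.71 ± 4.09 CPM, against 0.220 ± 0.0459 CPM on day 1 (5.29 ± 0.58, edgeR adjusted p = 0.000504). Sost and Chrdl1, whose products can also bind BMPs, rose on day 1 by 3.42 ± 0.49 and 2.21 ± 0.33 on the log2 scale (edgeR adjusted p = 0.00211 and 0.0026). Twsg1 passed on day 2 (0.83 ± 0.16, edgeR adjusted p = 0.00706), though not without day 2 replicate 1 (0.0779). Bmper fell in sorted cells to 2.12 ± 0.554 CPM, against 8.22 ± 0.869 CPM on day 3 (-1.96 ± 0.24, edgeR adjusted p = 0.0012). The endoderm marker values given above for sorted cells stand beside Fst and Bmper too, and their part in these falls was not tested.

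Of 14 intracellular inhibitor and phosphatase genes, 3 rose and 2 fell on day 1, and 2 rose and 2 fell on day 2. The shares over all genes were 12.0% higher and 8.91% lower on day 1, and 9.65% and 9.99% on day 2. Tgif1, a corepressor gene, fell on day 1 (log2 fold change -1.52 ± 0.16, edgeR adjusted p = 0.000678). Ctdspl, the gene of a small phosphatase that acts on SMADs, rose (1.78 ± 0.19, edgeR adjusted p = 0.000624), as did Zeb2, the gene of a SMAD-interacting repressor (1.27 ± 0.17, edgeR adjusted p = 0.00167). On day 2, Skil fell (-1.41 ± 0.17, edgeR adjusted p = 0.000801) and Zeb2 rose again (0.97 ± 0.17, edgeR adjusted p = 0.0047). Nedd4l passed as lower on day 2 (-0.72 ± 0.19), though not without day 1 replicate 1, day 2 replicate 1 or day 2 replicate 2, where the edgeR adjusted p reached 0.202. Tgif1 passed as lower in sorted cells (-0.67 ± 0.16, edgeR adjusted p = 0.0417), a call lost in 6 of 11 fits that left out 1 library.

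Of 11 other BMP response genes tested, 3 rose on day 1 and 4 rose on day 2, beside 12.0% and 9.65% of all genes. On day 3, 1 rose and 1 fell, beside 2.81% and 1.26% of all genes. In sorted cells 2 fell, beside 2.93% of all genes. Msx1, a homeobox gene of the dorsal neural tube, rose on day 2 to 12.2 ± 5.84 CPM, against 0.920 ± 0.0254 CPM on day 1 (log2 fold change 3.73 ± 0.58, edgeR adjusted p = 0.00277). On day 3 it fell to 1.26 ± 0.979 CPM (-3.28 ± 0.56, edgeR adjusted p = 0.0182), a call lost without day 2 replicate 2 or day 3 replicate 1, where the adjusted p reached 0.165. The 9 roof plate and dorsal markers, a list that holds Msx1, summed to 17.9 to 19.1 CPM on day 1, 27.2 to 35.9 on day 2, 13.4 to 15.0 on day 3 and 4.30 to 7.87 on day 3.5. Hey1, which also answers to Notch, rose on day 2 to 16.2 ± 4.49 CPM, against 1.53 ± 0.0358 CPM on day 1 (3.41 ± 0.32, edgeR adjusted p = 0.000264). It rose on day 3 to 74.3 ± 10.5 CPM (2.20 ± 0.29, edgeR adjusted p = 0.00733), a call lost without day 2 replicate 2 or day 3 replicate 1 (adjusted p up to 0.107).

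Atoh8, the gene of a basic helix-loop-helix factor, had 2 and 3 counts in the day 0 libraries, 3.35 ± 1.27 CPM on day 1 and 11.1 ± 0.356 CPM on day 2 (log2 fold change of day 2 against day 1 of 1.72 ± 0.33, edgeR adjusted p = 0.00711). The day 2 call was lost without day 2 replicate 1 (adjusted p = 0.0585). Dlx3 rose on day 1 (2.26 ± 0.42, edgeR adjusted p = 0.00662) and passed as lower in sorted cells (-2.04 ± 0.48, edgeR adjusted p = 0.0436), the second call being lost in 6 of 11 fits that left out 1 library. Gata2 passed on day 1 (1.67 ± 0.46, edgeR adjusted p = 0.0319), a call lost in 4 of 8 such fits. Dusp9 passed as lower in sorted cells (-1.83 ± 0.32, edgeR adjusted p = 0.0096), though not without day 3 replicate 1 (0.131).

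**Figure D5:**
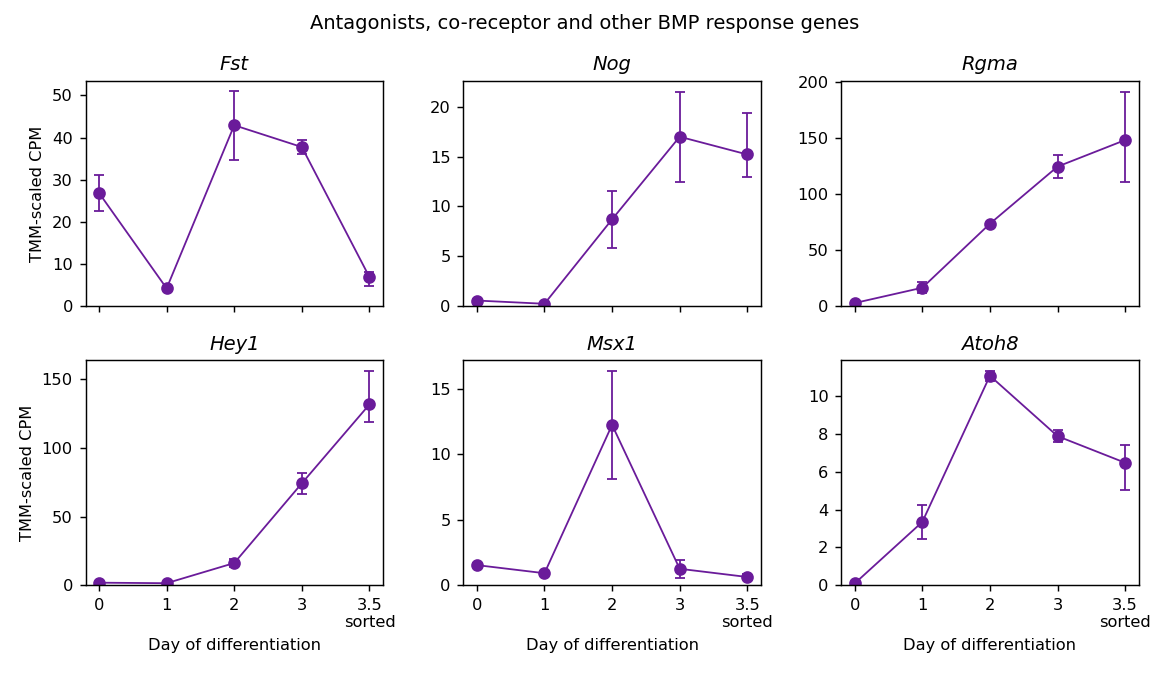
Mean TMM-scaled CPM (points) with the lowest and highest library (bars) by day for 6 pathway genes that are no members. Fst has a low point on day 1 (4.18 CPM), Msx1 peaks on day 2 (12.2 CPM), and Nog, Rgma and Hey1 are far higher on day 3 than on day 0.

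Genes whose pattern over the 11 libraries was most like each member were found as those with the smallest root mean square difference of gene-centred log2 CPM among 14263 genes. Another member came first for Id1 only, whose nearest gene was Id2 (0.584), followed by Mycn (0.707) and Jag1 (0.770). The nearest genes were Col12a1 (0.417), Thbs1 (0.475) and Magel2 (0.507) for Id2, and Crabp1 (0.685), Tmem132c (0.701) and the antagonist gene Nog (0.764) for Id3. They were Tns1 (0.306), Nes (0.361) and Rufy4 (0.385) for Id4. Nes encodes nestin, a neural progenitor filament protein. Bmp4 was nearest to Nr1d1 (0.414), Socs3 (0.479) and Car4 (0.513), and Bmp7 to Plat (0.271), Pknox2 (0.365) and Lmx1b (0.377). Smad7 was nearest to Pmepa1 (0.237), another feedback inhibitor of the transforming growth factor beta branch, and Slc52a3 (0.281) was also among its nearest. For Smad6 they were Ttc34 (0.244), Syt12 (0.263) and Gramd4 (0.271), and for Bambi Akt2-ps (0.145), Hira (0.155) and Dph1 (0.161). The distance to the nearest gene was thus largest for Id3 and Id1 and smallest for Bambi. Among the members themselves, Bmp4 and Smad7 were each other's nearest at 0.557, and the member nearest to Id3 was Id4 at 1.34. Genes can lie close here because they hardly moved, and the libraries are shared by all genes.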

How the data were processed

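The authors deposited a table of estimated counts per gene, a table of log2 values and a table of FPKM, for 11 polyA-selected TruSeq libraries per the labels. The submitters' processing notes list TopHat2 2.0.4, bcl2fastq 1.8.3, limma, Cufflinks 2.1.1, CASAVA and HTSeq 0.6.1, as well as mm10 and GRCm38, with no word on which step each served. The sources used here do not say which annotation was counted or whether strand was used. Of 38197 genes, 104 had a fractional count, none of them among the 9 genes described, and the deposited counts were rounded. The deposited log2 values equal log2 CPM recomputed from the counts to within 4.97e-14.

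Counts were tested with edgeR 4.0.16 in R 4.3.3 (quasi-likelihood F test, TMM scaling, filterByExpr with a minimum count of 10, group means model, no replicate block, Benjamini-Hochberg adjustment, threshold 0.05). Days 0 to 3 were fitted on 8 libraries (16810 genes), and day 3.5 against day 3 on all 11 (17006 genes). All 9 genes passed the filter. Each value is limited by its counts, and a library with 3 or fewer counts of a gene is at the floor.

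The 9 genes and the lists of other pathway genes were chosen with earlier results of these data known. All 9 are named. Of each other list, up to 3 called genes with the smallest adjusted p per comparison are named, with the 3 E protein genes and the 3 nearest patterns per gene, of which 1 is not reported here. Alternatives were RLE factors, no count filter, DESeq2 1.42.0, the other set of libraries, a replicate block, limma 3.58.1 on FPKM with pseudocount 1 or 0.1 (FPKM of at least 1 in 2 libraries, or no filter) and on the deposited log2 values, and leaving out each library. The tests were checked on simulated data with 100 genes changed by 1 log2 unit and 100 by 2. The changed genes were drawn from those above a minimum total count, and all other genes were left unchanged. Of the smaller changes, 40% were recovered for day 3 against day 2, 29% for day 1 against day 0 and 54% for day 3.5 against day 3. Of the larger, 85%, 83% and 93% were recovered, with 13, 9 and 7 false calls. A gene that did not pass may thus still have changed by 1 log2 unit. Promoter windows are from RefSeq and gene spans from GENCODE M21.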

Additional observations from a re-analysis of the deposited data

How the results depend on the processing

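Of 1197 values recomputed under another setting, 1041 kept their direction and their side of the threshold or moved little. Scaling matters for directions at day 1, because the median log2 fold change over all genes for day 1 against day 0 was 0.01 in edgeR and 0.15 with limma on the deposited log2 values (0.17 for day 3 against day 0), and 0.10 with log2(FPKM + 0.1). The calls at day 1 split into 2015 higher and 1498 lower in edgeR, 2677 and 1049 with those log2 values, and 1551 and 760 with log2(FPKM + 1). The sorted libraries hold fewer counts than the others, which limits genes such as Smad6.

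Members called lower at day 3 against day 2 were 0 as reported, 2 without a count filter, in DESeq2 and with other libraries in the fit, and 0 to 1 when 1 library was left out. Members called lower at day 3 against day 0 were 1, against 2 with RLE factors, without a count filter, in DESeq2 and with other libraries, 0 on unfiltered FPKM, and 1 to 2 leaving out 1 library. Members called lower at day 3.5 against day 3 were 0, against 1 without a count filter and in DESeq2, and 0 to 1 leaving out 1 library. Over all genes, those called lower in these comparisons, in the same order, numbered 211, 4422 and 499 in edgeR. In DESeq2 they numbered 524, 4410 and 756. Other pathway genes called higher at day 1 numbered 16, against 10 on unfiltered FPKM, and those lower 4, against 2. At day 2 those higher numbered 20, against 11 with log2(FPKM + 1), 11 with log2(FPKM + 0.1), 5 on unfiltered FPKM and 8 to 22 leaving out 1 library. At day 2 those lower numbered 3, against 1 with the replicate block and with both FPKM pseudocounts, and 1 to 3 leaving out 1 library. At day 3 against day 2 those higher numbered 2, against 5 without a count filter, in DESeq2 and with other libraries, 1 with both FPKM pseudocounts, 0 on unfiltered FPKM, and 0 to 3 leaving out 1 library. Those lower numbered 1, against 0 in all FPKM fits, and 0 to 1 leaving out 1 library. At day 3.5 those higher numbered 0, against 1 without a count filter and with other libraries, 2 in DESeq2, and 0 to 1 leaving out 1 library. Those lower numbered 5, against 3 with other libraries and with the replicate block, 2 with both FPKM pseudocounts, 1 on unfiltered FPKM, and 2 to 6 leaving out 1 library. The cause was not tested.

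The sign of some uncalled log2 fold changes near 0 reversed. For day 3 against day 0, Bambi had 0.025 with log2(FPKM + 1), filtered or not, and 0.038 with log2(FPKM + 0.1). For day 3.5 against day 3, Id3 had 0.022 with RLE factors and 0.023 in DESeq2, and Bambi had 0.022, 0.023 and, with the replicate block, 0.138. Smad6 had -0.064 with the block. Leaving out 1 library gave, for day 3.5 against day 3, -0.055 to 0.469 for Id1, -0.1 to 0.694 for Id2, -0.261 to 0.206 for Id3, -0.124 to 0.532 for Smad6, -0.499 to 0.1 for Smad7 and -0.181 to 0.181 for Bambi. For day 3 against day 2 it gave -0.132 to 0.273 for Bmp4 and -0.136 to 0.464 for Smad7. On unfiltered FPKM, Smad6 and Smad7 lost their calls at day 3 against day 0 (adjusted p = 0.231 and 0.0814, limma).

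The replicate numbers did not pair the libraries in the same sense on all days. The deviations of replicate 1 from the group mean correlated between days at -0.633 (days 0 and 1) to 0.278 (days 1 and 2) over 16810 genes. A negative value means that replicate 1 of a day resembled replicate 2 of the other day. Whether libraries shared a batch under other numbers was not tested. Among the counts of members and other pathway genes, the replicate block changed no other by more than 1.5 times. Over all genes, those called lower went from 211 to 111 with the block for day 3 against day 2. For day 3.5 against day 3 they went from 499 to 232.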
